A study of Homo sapiens with 12 samples.

Results

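The genes of BMP, activin and TGF-beta signalling described here are 10 of the 20003 genes measured, taken by their symbols, as a set put together with earlier results of these data known: the ligand genes BMP2, INHBB and TGFB1, the receptor genes TGFBR2, ACVR2A, TGFBR1 and ACVR1B, and the SMAD genes SMAD3, SMAD6 and SMAD7. They were followed by mRNA-seq in 2 leukemia cell lines after incubation with OGP46, a kaurene diterpenoid derived from oridonin that the study examined as an inducer of differentiation. NB4 cells come from an acute promyelocytic leukemia and carry PML-RARα, whereas Kasumi-1 cells come from an acute myeloid leukemia with the t(8;21) translocation that yields AML1-ETO. Each line gave 3 samples incubated with 1 μM OGP46 and 3 control samples with DMSO, 12 samples in all. The incubation was 48 h by the sample labels, while a legend of the study gives a longer time. The study's legend to its mRNA-seq figure speaks of 3 independent experiments, and its methods state in general that experiments were repeated. The sample labels, however, do not tie the 3 samples of a group to separate cultures. The p-values therefore measure the spread between these samples, which may be technical.

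Ligands of this family bind a pair of type II receptors, which phosphorylate a pair of type I receptors. TGFBR2 and TGFBR1 form the receptor for TGF-beta, and ACVR2A and ACVR1B form a receptor for activins. The type I receptors then phosphorylate SMAD proteins. SMAD2 and SMAD3 carry the TGF-beta and activin signal, whereas SMAD1, SMAD5 and SMAD9 carry the BMP signal, and each joins SMAD4 to enter the nucleus. SMAD6 and SMAD7 are inhibitory SMADs, whose genes are themselves induced by the signal and close a feedback loop. In blood cells TGF-beta is best known for restraining the growth of early progenitors and for its part in monocyte and granulocyte maturation.

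The values are FPKM, which scale the fragments of a gene to its exon length and to the size of the library, so that levels can be set side by side between genes. Over the 20003 genes they summed to between 248207 and 310262 per sample. The depth of sequencing is unknown because no counts were used, and no counting interval is given. A gene was called when limma's adjusted p was below 0.05 and the log2 fold change, on the log2(FPKM + 0.1) scale, was at least 0.58 in size, which is a 1.49-fold change. For single genes, 3 samples against 3 cannot give an exact two-sided permutation p below 0.1, so tests rest on the fit across all genes. Same-numbered samples of a line tended to deviate together, though some pairs with different numbers did so too. The comparisons within each line and the test between their responses were also fitted with the replicate number as a block. The untreated lines were compared without it.

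The lines were checked by their markers. The summed level of 6 Kasumi-1 markers (RUNX1T1, POU4F1, TRH, CD34, HLA-DRA and KIT) was 273 to 310 FPKM in Kasumi-1 controls and 242 to 279 with OGP46, against 0.737 to 3.87 in NB4 controls and 0.730 to 1.33 in NB4 cells with OGP46. The highest NB4 value belonged to NB4 control 3, whose Kasumi-1 signal by these markers was 1.15% of the Kasumi-1 level, against 0.0680% in control 1, 0.362% in control 2 and 0.0942% to 0.156% in the NB4 samples with OGP46. Of 4 genes listed as NB4 markers, DEFB1 was at 0 in all 6 Kasumi-1 samples and STAB1 was higher in NB4. HGF did not mark NB4, with a mean of 13.5 FPKM in Kasumi-1 controls and 8.83 FPKM in NB4 controls. FGF13 was listed at 0 in the 6 NB4 samples. The summed level of the 4 was 27.9 to 49.4 FPKM in NB4 controls, 23.0 to 34.3 with OGP46, 12.3 to 16.3 in Kasumi-1 controls and 13.6 to 18.8 with OGP46.

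Promoter sequences are shown for SMAD6 and SMAD7, the feedback genes of the pathway, and for TGFB1 and TGFBR2, which were both called higher in NB4 cells without and with the block. They are 300-base windows around a transcript start from RefSeq (GRCh38.p14), where 9 of the 10 genes had an entry and BMP2 had none. Capitals mark GTCT or its reverse complement AGAC, the core of the SMAD binding element. They also mark GTCTAGAC, the palindrome made of GTCT followed by AGAC. The motif GGCGCC was searched too. The SMAD6 window is chr15:66701986-66702285 on the + strand, the SMAD7 window is the first of 3 at chr18:48950916-48951215 on the - strand, the TGFB1 window is chr19:41353873-41354172 on the - strand, and the TGFBR2 window is the first of 2 at chr3:30606106-30606405 on the + strand.
SMAD6: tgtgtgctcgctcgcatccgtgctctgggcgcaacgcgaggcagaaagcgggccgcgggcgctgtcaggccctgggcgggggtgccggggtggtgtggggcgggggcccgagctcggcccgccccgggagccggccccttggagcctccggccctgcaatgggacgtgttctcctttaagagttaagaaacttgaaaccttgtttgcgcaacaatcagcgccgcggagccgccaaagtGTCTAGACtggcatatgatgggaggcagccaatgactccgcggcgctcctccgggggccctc
SMAD7: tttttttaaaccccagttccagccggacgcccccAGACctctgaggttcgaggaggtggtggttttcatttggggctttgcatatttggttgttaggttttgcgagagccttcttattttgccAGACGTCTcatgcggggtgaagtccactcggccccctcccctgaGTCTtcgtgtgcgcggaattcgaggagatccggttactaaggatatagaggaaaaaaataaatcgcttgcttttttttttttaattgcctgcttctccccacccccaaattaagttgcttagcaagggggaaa
TGFB1: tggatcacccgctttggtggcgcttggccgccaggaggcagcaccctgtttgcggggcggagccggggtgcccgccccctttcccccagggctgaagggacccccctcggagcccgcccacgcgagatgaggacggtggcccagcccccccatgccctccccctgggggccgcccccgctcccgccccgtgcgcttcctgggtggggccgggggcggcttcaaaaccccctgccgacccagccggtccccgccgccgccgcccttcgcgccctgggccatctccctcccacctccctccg
TGFBR2: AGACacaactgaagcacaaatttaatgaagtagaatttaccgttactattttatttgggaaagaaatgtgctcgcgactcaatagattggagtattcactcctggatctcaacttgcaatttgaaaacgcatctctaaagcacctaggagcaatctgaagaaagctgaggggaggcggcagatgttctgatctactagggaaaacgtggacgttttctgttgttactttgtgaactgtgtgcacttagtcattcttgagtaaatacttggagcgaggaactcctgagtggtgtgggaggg
The palindrome GTCTAGAC occurred in 1 of the 24 windows of the members, that of SMAD6, where it begins at position -12 with the transcript start as 0. It occurred in 71 of 35116 RefSeq windows, or 0.202%. The SMAD7 window held 4 matches to GTCT on either strand, between positions -216 and -83, and that of TGFBR2 held 1. The TGFB1 window held none of the 3 motifs. GTCT is short and common: 18 of the 24 windows, from 8 genes, held it on either strand, as did 84.0% of all windows. GGCGCC was in 4 windows of 4 members and in 19.2% of all windows. The TGFB1 window was 77.3% G and C, that of SMAD6 68.0%, that of SMAD7 48.3% and that of TGFBR2 42.3%, against a median of 58.7% over all windows. The windows not shown differed: the second of TGFBR2 was 61.7% G and C, and the further SMAD7 windows were 57.0% and 49.3%. These matches describe the letters of the windows, and binding was not measured.

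**Figure D1:**
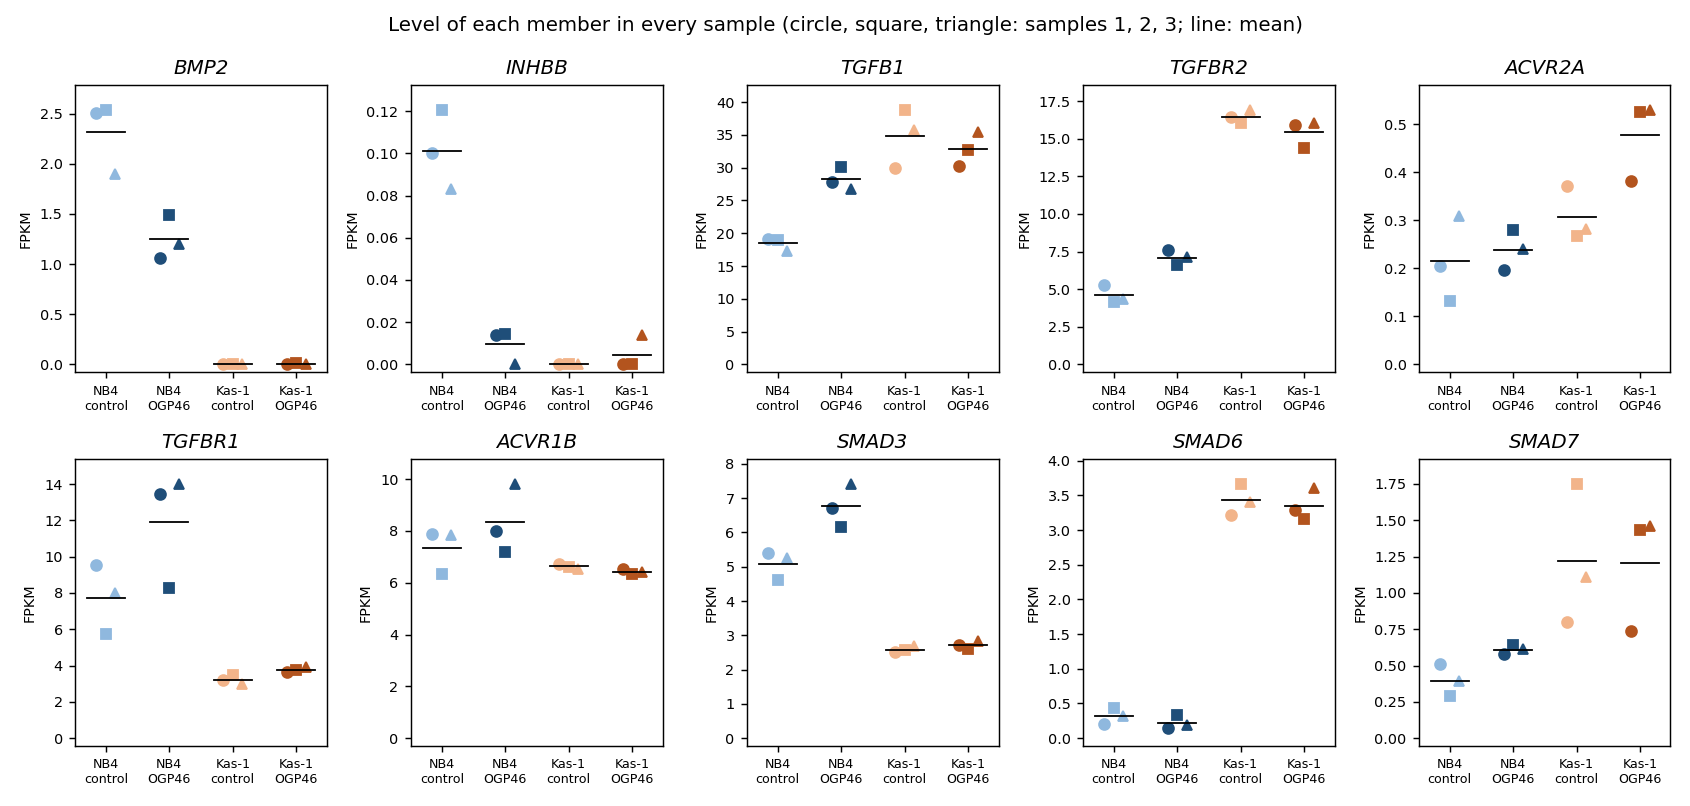
FPKM of the 10 genes in each of the 12 samples, 1 panel per gene, with points for samples and a bar for the group mean of 3. TGFB1 lies between 26.7 and 30.2 FPKM in NB4 cells with OGP46, above the NB4 controls at 17.3 to 19.2, whereas the Kasumi-1 groups overlap. BMP2 is at or near 0 in the 6 Kasumi-1 samples.

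In NB4 cells with OGP46, fitted without the block, BMP2 was called lower and TGFB1 and TGFBR2 higher. These calls depended on the processing, as given below. Among the 9 members tested, 2 were called higher and 1 lower. Over all 11750 genes tested, 1.45% were called higher and 0.111% lower. With the replicate block TGFBR1 was called as well, which gave 3 higher and 1 lower against a background of 5.06% higher and 1.15% lower. The FPKM of most genes was higher with OGP46 in NB4 cells, with sums of 263341 to 291523 against 248207 to 256268 in the controls and a median log2 fold change of 0.18 over all genes, and the increases below stand against this shift. With the block and samples centred on their median, 188 genes were called higher and 203 lower, against 595 and 135 with the block alone, and of the members BMP2 was still called. With the block and TPM scaling BMP2 was again the only member called, as TGFB1 at 0.48 and TGFBR2 at 0.50 were under the minimum fold change. Under the block without the minimum level, TGFB1, TGFBR2 and INHBB were called, and BMP2 and TGFBR1 were not (limma, adjusted p = 0.0673 and 0.0522). Without the block, no member was called with TPM scaling, median centring, quantile normalization, no variance trend or no minimum level.

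BMP2, a secreted BMP ligand, was at 2.50, 2.53 and 1.90 FPKM in NB4 controls 1 to 3 and at 1.06, 1.49 and 1.20 FPKM in the samples with OGP46. Every sample with OGP46 lay below every control, as was the case for 1.91% of the genes tested. The mean went from 2.31 ± 0.356 to 1.25 ± 0.219 FPKM (SD, n = 3), a log2 fold change of -0.84 with a standard error of 0.17 (limma, adjusted p = 0.0467, or 0.00201 with the block). It was -1.06 with the block and samples centred on their median (limma, adjusted p = 0.0035), and with the block and no minimum level the adjusted p of limma was 0.0673. In bulk RNA, fewer cells with BMP2 mRNA and less BMP2 mRNA per cell cannot be told apart. Kasumi-1 controls listed BMP2 at 0, and subtracting the Kasumi-1 signal from the NB4 samples, an alternative added after seeing the data, left 3 members called without the block and 4 with it.

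INHBB, which encodes the beta B subunit of activin B and inhibin B, was near the lower end of what these files list. Its level was 0.1002, 0.120 and 0.0829 FPKM in NB4 controls and 0.0141, 0.0145 and 0 FPKM with OGP46. These groups did not overlap either, but the mean over the 6 samples was under the minimum of 0.1 FPKM, and INHBB was not among the 9 genes tested. Without that minimum its log2 fold change was -0.88 with a standard error of 0.11 (limma, adjusted p = 0.0565), and with the block the adjusted p was 0.0419. At such levels the pseudocount sets much of the size of the change. The study counted INHBB among the genes significantly lower in NB4 cells with OGP46.

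TGFB1, the ligand gene with the highest level in both lines, was at 19.2, 18.9 and 17.3 FPKM in NB4 controls and at 27.8, 30.2 and 26.7 FPKM with OGP46. The groups did not overlap, and each sample with OGP46 exceeded its same-numbered control; all 3 samples above the controls were found for 32.7% of the genes tested. The mean was 18.5 ± 0.996 FPKM in controls and 28.2 ± 1.78 FPKM with OGP46 (SD, n = 3). The log2 fold change was 0.61 with a standard error of 0.08 (limma, adjusted p = 0.0281, or 0.000662 with the block). With the block and median centring it was 0.39 (limma, adjusted p = 0.00825), under the minimum fold change. Without the block, TGFB1 lost its call when any 1 of the 6 samples was left out, by its adjusted p or, without OGP46 replicate 2, by a log2 fold change of 0.56.

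The type II receptor gene TGFBR2, which encodes the receptor that binds TGF-beta, rose by a similar factor. It was at 5.30, 4.13 and 4.38 FPKM in NB4 controls and at 7.59, 6.60 and 7.12 FPKM with OGP46, again without overlap. The log2 fold change was 0.62 with a standard error of 0.12 (limma, adjusted p = 0.0431, or 0.00141 with the block), and 0.40 with the block and median centring (limma, adjusted p = 0.0126). ACVR2A, a type II receptor gene of the activin branch, was far lower, at 0.206, 0.131 and 0.308 FPKM in controls and 0.196, 0.280 and 0.240 FPKM with OGP46. The ACVR2A groups overlapped, 1 pair of same-numbered samples was higher with OGP46 and 2 were lower, and the log2 fold change of 0.14 had a standard error of 0.27.

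TGFBR1, the type I receptor gene that pairs with TGFBR2, differed among NB4 samples by replicate number. The controls were at 9.52, 5.72 and 7.97 FPKM and the samples with OGP46 at 13.5, 8.26 and 14.0 FPKM. The groups overlapped, because sample 2 with OGP46 lay below control 1, yet every sample with OGP46 was above its same-numbered control. Its log2 fold change was 0.61, with a standard error of 0.24 (limma, adjusted p = 0.141) that became 0.10 with the block (limma, adjusted p = 0.00169). With the block and median centring the change was 0.39 (limma, adjusted p = 0.0122), under the minimum fold change. ACVR1B, the activin type I receptor gene, was at 7.88, 6.34 and 7.83 FPKM in controls and 7.99, 7.19 and 9.81 FPKM with OGP46. The ACVR1B groups overlapped and the log2 fold change of 0.17 had a standard error of 0.14 (limma, adjusted p = 0.417), close to the median of all genes. Median centring turned the signs of ACVR2A and ACVR1B.

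SMAD3, the transducer of TGF-beta and activin signals, was at 5.40, 4.63 and 5.25 FPKM in NB4 controls and 6.71, 6.17 and 7.41 FPKM with OGP46. All 3 samples with OGP46 were above the controls, but the log2 fold change of 0.40 with a standard error of 0.11 stayed under the minimum fold change (limma, adjusted p = 0.0761, or 0.0138 with the block). The other SMADs of this class that were tested, SMAD2, SMAD4 and SMAD5, had log2 fold changes of 0.25 to 0.27, and none of them was called.

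The inhibitory SMADs were low in NB4 cells and were not called. SMAD7 was at 0.507, 0.291 and 0.390 FPKM in controls and 0.577, 0.641 and 0.611 FPKM with OGP46, with no overlap between the groups and a log2 fold change of 0.54 with a standard error of 0.21 (limma, adjusted p = 0.139, or 0.0726 with the block). SMAD6 was at 0.200, 0.430 and 0.313 FPKM in controls and 0.149, 0.327 and 0.189 FPKM with OGP46. Each SMAD6 value with OGP46 was below that of its same-numbered control, but the groups overlapped, and the log2 fold change of -0.36 had a 95% interval of -1.06 to 0.33. The ratio of SMAD6 to SMAD7 was 0.394, 1.48 and 0.802 in controls and 0.258, 0.511 and 0.310 with OGP46. It was lower in each same-numbered pair, but the groups overlapped.

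The order of levels within NB4 controls was TGFB1, TGFBR1, ACVR1B, SMAD3, TGFBR2, BMP2, SMAD7, SMAD6, ACVR2A and INHBB. TGFBR1 overlapped with ACVR1B, SMAD3 with TGFBR2, SMAD7 with SMAD6 and SMAD6 with ACVR2A, while the other neighbours were apart in all 3 samples. With OGP46, TGFBR2 stood above SMAD3 and ACVR2A above SMAD6 by their means, but each of these pairs overlapped.

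**Figure D2:**
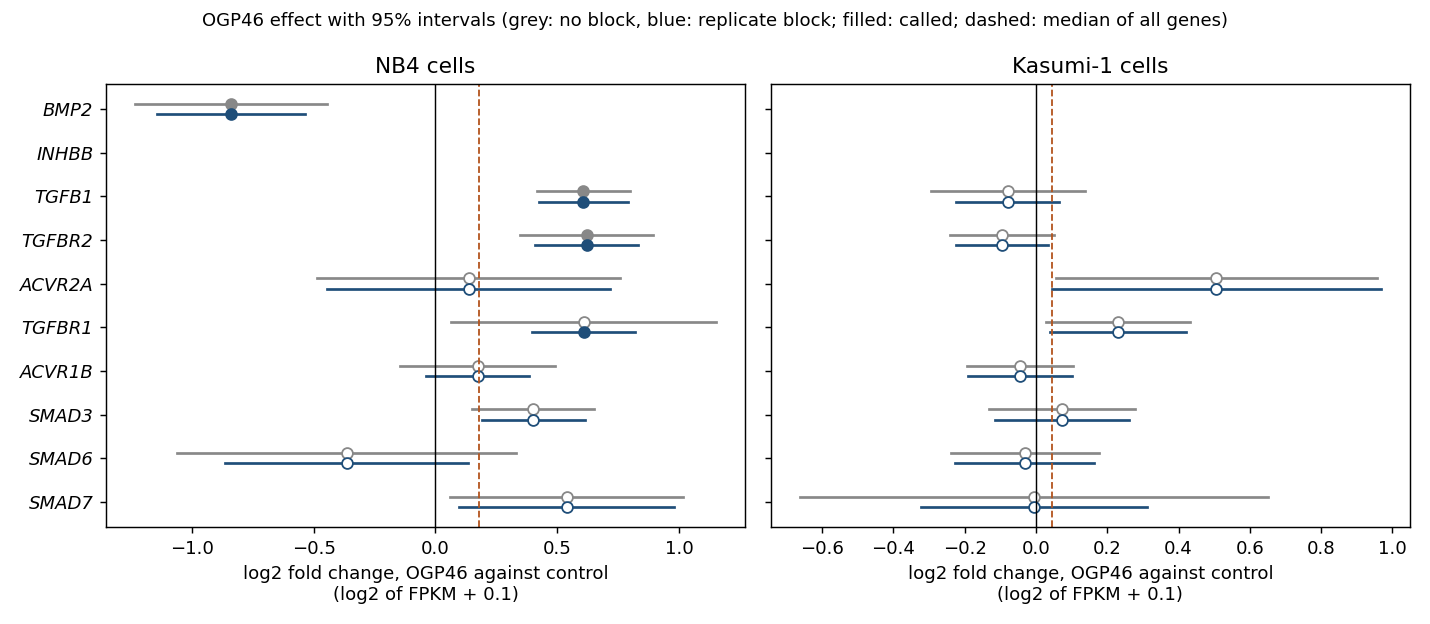
Log2 fold change of OGP46 against control, on the log2(FPKM + 0.1) scale, for each tested member in NB4 and Kasumi-1 cells, with the 95% interval of limma without and with the replicate block. In NB4 cells TGFB1, TGFBR1 and TGFBR2 lie at 0.61 to 0.62 and BMP2 at -0.84, whereas in Kasumi-1 cells the values run from -0.10 to 0.51.

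In Kasumi-1 cells none of the 8 members tested was called, without or with the block, and 2 of them had an unadjusted p below 0.05. Across the 11835 genes tested, 0.0169% were called higher and 0.0169% lower, and 0.27% and 0.346% with the block, so calls were rare in this line. The median log2 fold change over all genes was 0.05.

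TGFB1 was at 29.9, 38.7 and 35.8 FPKM in Kasumi-1 controls and at 30.3, 32.7 and 35.4 FPKM with OGP46, which overlapped, with a log2 fold change of -0.08 and a 95% interval of -0.30 to 0.14. TGFBR2 was at 16.5, 16.1 and 16.9 FPKM in controls and at 15.9, 14.4 and 16.0 FPKM with OGP46, and its log2 fold change of -0.10 had an interval of -0.24 to 0.05. For TGFB1 and TGFBR2 these intervals do not reach the log2 fold changes found in NB4 cells, but they leave out the error of the NB4 values. The test between the lines, given below, called neither gene without the block.

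The 2 members with the lowest p in Kasumi-1 cells were receptor genes. ACVR2A was at 0.372, 0.267 and 0.282 FPKM in controls and 0.382, 0.525 and 0.529 FPKM with OGP46, with a log2 fold change of 0.51 and a standard error of 0.20 (limma, adjusted p = 0.272, or 0.184 with the block). TGFBR1 was at 3.19, 3.46 and 2.98 FPKM in controls and 3.66, 3.74 and 3.93 FPKM with OGP46, with a log2 fold change of 0.23 and a standard error of 0.09 (limma, adjusted p = 0.267, or 0.147 with the block). Neither gene's groups overlapped, and all 3 samples above the controls were found for 17.4% of the genes tested in this line. The study listed ACVR2A under a cytokine receptor pathway enriched among its Kasumi-1 genes, whereas ACVR2A was not called here.

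ACVR1B varied little in Kasumi-1 cells, at 6.72, 6.62 and 6.55 FPKM in controls and 6.52, 6.32 and 6.43 FPKM with OGP46. The small difference had no overlap, as for the 5.23% of genes whose 3 samples all lay below the controls, and the log2 fold change of -0.04 had a 95% interval of -0.19 to 0.10. SMAD3 lay between 2.50 and 2.85 FPKM in all 6 samples and SMAD6 between 3.16 and 3.66 FPKM, with overlapping groups. SMAD7 varied most between samples of a group, at 0.802, 1.75 and 1.11 FPKM in controls and 0.735, 1.43 and 1.46 FPKM with OGP46. Its log2 fold change of -0.01 had an interval of -0.66 to 0.65, wide enough to hold the value of NB4 cells.

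BMP2 and INHBB were below the minimum level in Kasumi-1 cells and were not tested. BMP2 was listed at 0 in the 3 controls and in 2 of the samples with OGP46, with 0.0157 FPKM in the other. INHBB was at 0 in the 3 controls and in 2 samples with OGP46, with 0.0139 FPKM in the other.

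Whether the response to OGP46 differed between the lines was tested as the interaction of line and treatment over the 12 samples. This comparison uses the same control samples as the comparisons within each line. Without the block, 0% of the 12309 genes tested were called in either direction, although 1348 had an unadjusted p below 0.05. With the block, 1.81% were higher in NB4 and 0.114% lower, and TGFB1 and TGFBR2 were among the higher. For TGFB1 the NB4 log2 fold change exceeded that of Kasumi-1 by 0.69 with a standard error of 0.10 (limma with the block, adjusted p = 0.0131, and 0.103 without it). For TGFBR2 the difference was 0.72 with a standard error of 0.10 (limma with the block, adjusted p = 0.0130, and 0.0976 without it). The median of this difference over all genes was 0.12, and with the block and median centring it was 0.54 for TGFB1 (limma, adjusted p = 0.0176) and 0.57 for TGFBR2 (limma, adjusted p = 0.0144). When the minimum level was dropped under the block, TGFBR2 was still called (limma, adjusted p = 0.0425), and TGFB1 was not (limma, adjusted p = 0.0549). TGFBR1, which also rose in NB4 cells with the block, had a difference of 0.38 with a 95% interval of 0.09 to 0.67 in the same fit (limma, adjusted p = 0.171) and was not called. The difference of BMP2 was -0.91 (limma, adjusted p = 0.216, or 0.0800 with the block), but with BMP2 at or near 0 in the 6 Kasumi-1 samples this value rests on NB4 cells.

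The untreated lines themselves differed in most of these genes. Of the 9 members tested, 3 were higher in NB4 controls and 4 lower, where 22.7% of 12302 genes were called higher and 29.7% lower (2790 and 3659 genes, or 3586 and 3005 with TPM scaling). BMP2 was at 1.90 to 2.53 FPKM in NB4 controls and listed at 0 in Kasumi-1 controls, so no fold is given. TGFB1 had a mean of 18.5 ± 0.996 FPKM in NB4 and 34.8 ± 4.50 FPKM in Kasumi-1 controls (SD, n = 3), a log2 difference of -0.90 for NB4 minus Kasumi-1 (limma, adjusted p = 4.02e-05). With OGP46 the NB4 mean of 28.2 FPKM came nearer to the Kasumi-1 values.

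The mRNA levels of TGFBR2 and TGFBR1 stood in opposite order in the untreated lines, and these data hold no receptor protein. NB4 controls had 4.60 ± 0.618 FPKM of TGFBR2 against 16.5 ± 0.405 FPKM in Kasumi-1 controls, a log2 difference of -1.83 (limma, adjusted p = 5.36e-07). NB4 had more TGFBR1, at 7.74 ± 1.91 against 3.21 ± 0.241 FPKM, a log2 difference of 1.22 (limma, adjusted p = 0.00018). The ratio of TGFBR2 to TGFBR1 thus ranged from 0.509 to 0.799 over the 6 NB4 samples and from 3.85 to 5.66 over the 6 Kasumi-1 samples, and it overlapped between OGP46 and control in NB4 cells. In Kasumi-1 cells it was 5.17, 4.64 and 5.66 in controls and 4.34, 3.85 and 4.07 with OGP46, without overlap and lower in each same-numbered pair. The activin receptor genes among the members were not called: ACVR1B had means of 7.35 ± 0.873 and 6.63 ± 0.0867 FPKM and ACVR2A of 0.215 ± 0.0889 and 0.307 ± 0.0569 FPKM, and each overlapped between the lines. ACVR2B, a further activin type II receptor gene, was called lower in NB4 controls, at 0.387 ± 0.0441 against 2.21 ± 0.191 FPKM. It was outside the rule for naming genes and is given after its values were seen.

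Of the SMADs, SMAD3 was higher in NB4 controls, at 5.09 ± 0.409 against 2.58 ± 0.0904 FPKM, a log2 difference of 0.95 (limma, adjusted p = 3.14e-05). Both inhibitory SMADs were higher in Kasumi-1 cells. SMAD6 was at 0.314 ± 0.115 FPKM in NB4 and 3.43 ± 0.222 FPKM in Kasumi-1 controls, a log2 difference of -3.13 (limma, adjusted p = 1.36e-06), and SMAD7 at 0.396 ± 0.108 and 1.22 ± 0.483 FPKM, a log2 difference of -1.37 (limma, adjusted p = 0.00159). In the order of levels SMAD6 came after ACVR1B in Kasumi-1 controls, overlapping with TGFBR1, and after SMAD7 in NB4 controls.

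**Figure D3:**
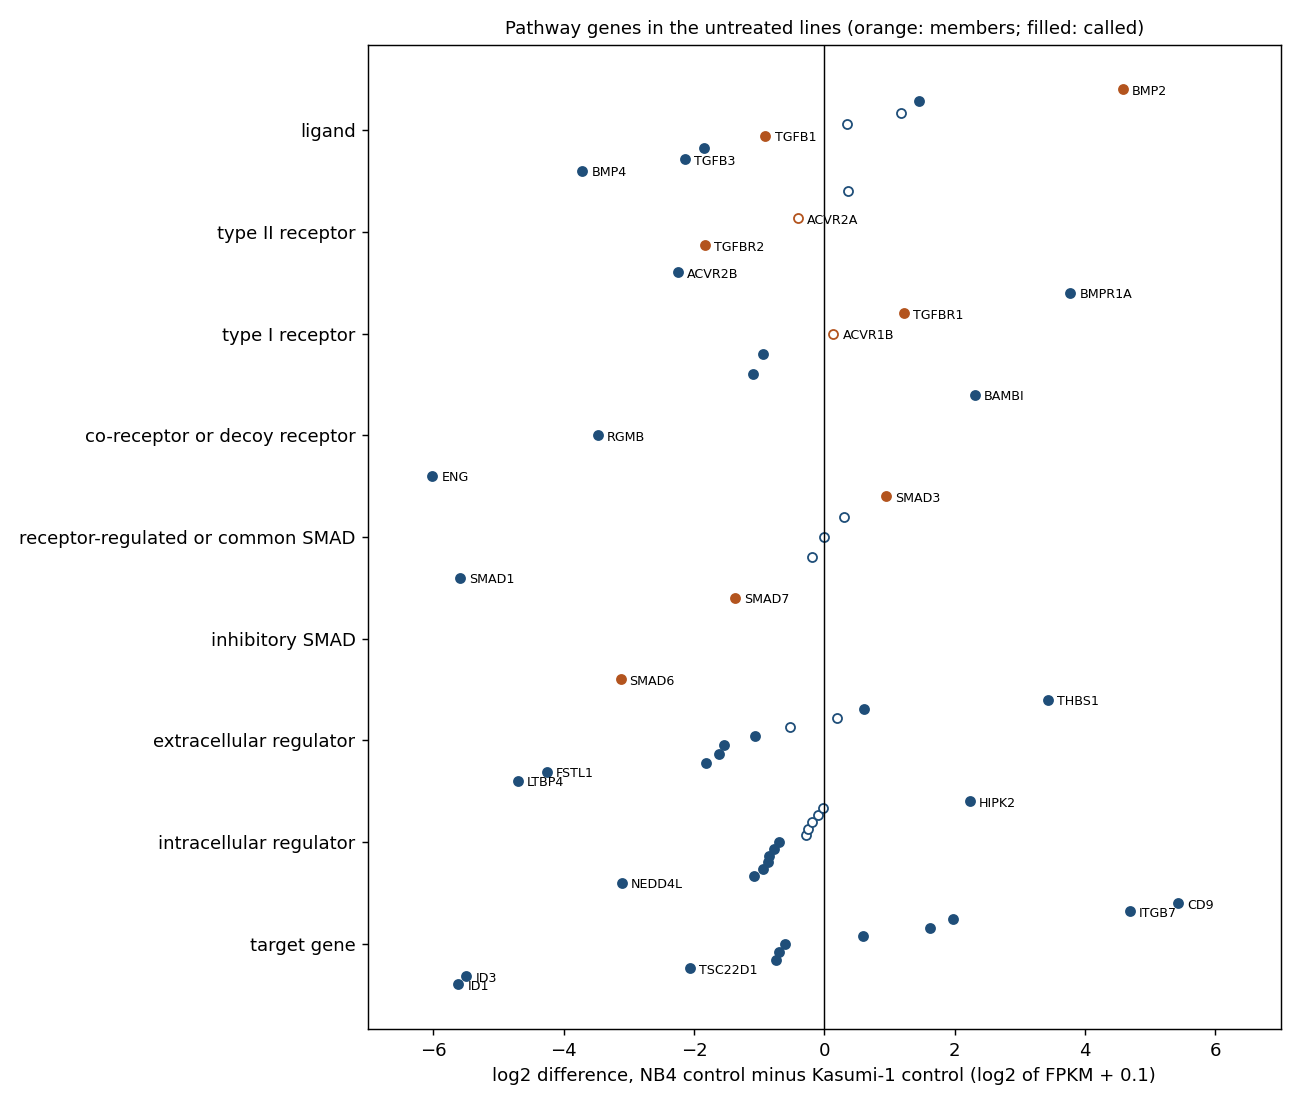
Log2 difference of NB4 control minus Kasumi-1 control, on the log2(FPKM + 0.1) scale, for the tested genes of the wider pathway list, grouped by role, with members in orange and called genes filled. ENG, ID1, SMAD1 and ID3 lie at -6.01 to -5.49 and CD9 at 5.43. The position of genes near 0 FPKM in a line, BMP2 among them, depends on the pseudocount.

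The other genes of the pathway were read from a list of 95 genes, members included, all of which were in the files. Like the members, the list was chosen with earlier results of these data known. In the untreated lines 61 were tested, 14 higher in NB4 and 32 lower, where the shares of all genes were 22.7% and 29.7%, with a median log2 difference of -0.70 against -0.10 over all genes. The genes called lower in NB4 included parts of the BMP branch. SMAD1, a BMP-regulated SMAD, had a mean of 0.0335 FPKM in NB4 and 5.97 FPKM in Kasumi-1 controls, ENG, a co-receptor known from endothelium, 0.0704 and 10.6 FPKM, and BMP4 0.00605 and 1.30 FPKM. ID1 and ID3, inhibitors of basic helix-loop-helix factors and well-known BMP targets, were at 0.421 and 0.0922 FPKM in NB4 and at 22.2 and 7.86 FPKM in Kasumi-1 controls. These NB4 means rest in part on single samples: SMAD1 was at 0 in controls 1 and 2 and at 0.101 FPKM in control 3, the sample with the most Kasumi-1 signal, where ID1 (0.812 FPKM), ID3 and ENG were also highest, and BMP4 was above 0 in control 2 alone. LTBP4, which holds latent TGF-beta in the matrix, and FSTL1, a secreted follistatin-like protein, were also lower in NB4 controls, with log2 differences of -4.71 and -4.26.

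Other genes stood higher in NB4 controls. BMPR1A, a type I BMP receptor, was at 3.45 ± 0.181 against 0.161 ± 0.0378 FPKM, and BAMBI, a decoy receptor without a kinase domain, at 1.09 ± 0.197 against 0.149 ± 0.0861 FPKM. CD9, a tetraspanin, and ITGB7, an integrin beta chain, had log2 differences of 5.43 and 4.68. HIPK2, a nuclear kinase, and THBS1, a matrix protein that can activate latent TGF-beta, had differences of 2.23 and 3.44. SMAD5, the SMAD with the highest level in both lines, was alike in its means, at 7.62 and 7.60 FPKM, with a log2 difference of 0.00 and a standard error of 0.09.

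Among the genes with the highest level of their role in NB4 and Kasumi-1 controls were FKBP1A, whose product binds type I receptors, at 168 and 171 FPKM, MYC, which TGF-beta is known to repress, at 84.6 and 138 FPKM, and NRROS, a myeloid protein that anchors latent TGF-beta, at 42.9 and 28.0 FPKM. Of 23 ligand genes, 6 reached a mean of 0.1 FPKM in the controls of each line, and TGFB1 was the highest in each.

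**Figure D4:**
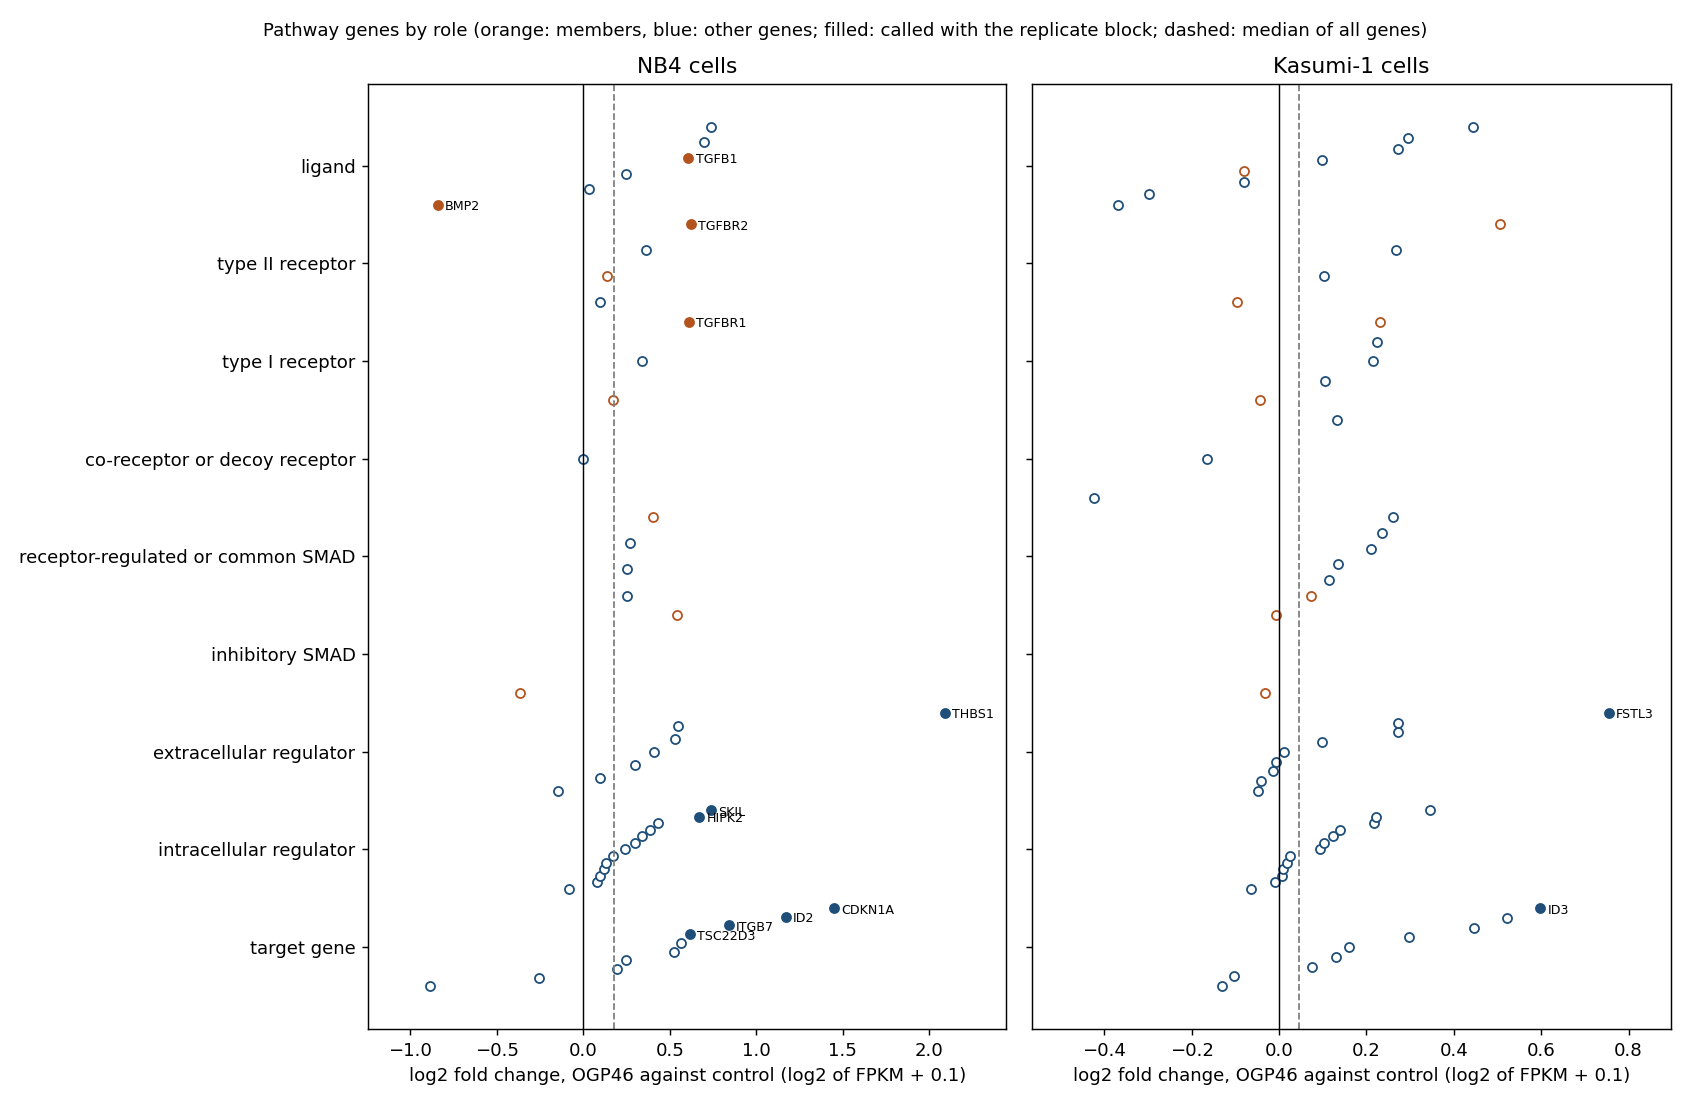
Log2 fold change of OGP46 against control, on the log2(FPKM + 0.1) scale, for the tested genes of the pathway list in NB4 and Kasumi-1 cells (the x axes differ in range), with members in orange, genes called with the replicate block filled and the median of all genes dashed. In NB4 cells 10 genes were called higher and BMP2 lower, and in Kasumi-1 cells FSTL3 and ID3 were called higher.

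In NB4 cells with OGP46, 50 genes of the list were tested, with 5 called higher and 1 lower, and 10 higher and 1 lower with the block, where the shares of all genes were 1.45% and 0.111%, or 5.06% and 1.15% with the block. Without the block the count of 6 was 0 with TPM scaling, median centring, quantile normalization, no trend or no minimum level, and when any sample but OGP46 replicate 2 was left out. The median log2 fold change of the 50 genes was 0.30, against 0.18 over all genes. The list was chosen with earlier results of these data known. It holds genes that the study reported for NB4 cells, CDKN1A, ID2, ITGB7, BMP2 and INHBB among them. ACVR2A, which the study listed for Kasumi-1 cells, is on it too. Its counts and median are therefore a description and no test of the pathway. Genes of the list called without the block, besides the members, were CDKN1A, HIPK2 and TSC22D3. With the block TGFBR1 among the members and ID2, ITGB7, SKIL and THBS1 were added. No gene of the list other than BMP2 was called lower in either fit.

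CDKN1A, which encodes the cell cycle inhibitor p21 and is induced by TGF-beta and by p53, was at 1.77, 1.69 and 1.15 FPKM in NB4 controls and 6.07, 4.34 and 3.02 FPKM with OGP46. The groups did not overlap, and the log2 fold change was 1.45 with a standard error of 0.26 (limma, adjusted p = 0.0364, or 2.57e-05 with the block). ID2 was at 5.39, 6.43 and 4.24 FPKM in controls and 12.5, 17.0 and 8.14 FPKM with OGP46, also without overlap. Its log2 fold change was 1.17 (limma, adjusted p = 0.056, or 4.63e-05 with the block).

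THBS1 showed how far the numbered NB4 samples can lie apart. Its controls were at 4.26, 0.0928 and 1.96 FPKM and the samples with OGP46 at 23.1, 0.491 and 9.62 FPKM. The groups overlapped, yet each sample with OGP46 was above its same-numbered control, and the log2 fold change of 2.09 had a standard error of 1.46 (limma, adjusted p = 0.356) that fell to 0.15 with the block (limma, adjusted p = 7.43e-06). ITGB7 had a log2 fold change of 0.84 (limma with the block, adjusted p = 0.000375), and SKIL, a SMAD corepressor that is also a TGF-beta target, of 0.74 (limma with the block, adjusted p = 0.00551). HIPK2 had a log2 fold change of 0.67 (limma, adjusted p = 0.0346, or 0.00175 with the block). TSC22D3, a leucine zipper gene best known for its induction by glucocorticoids, was outside the rule for naming genes and is given after its values were seen, with a log2 fold change of 0.62. After the block and median centring SKIL, HIPK2 and TSC22D3 were no longer called, at 0.52, 0.45 and 0.40. MYC was at 82.4, 85.6 and 85.9 FPKM in controls and 55.0, 79.2 and 81.5 FPKM with OGP46, with a log2 fold change of -0.26 that was not called.

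In Kasumi-1 cells 59 genes of the list were tested and none was called without the block, while the median log2 fold change was 0.10 against 0.05 over all genes. With the block FSTL3 and ID3 were called. FSTL3, a secreted inhibitor of activins, was at 0.767, 0.734 and 0.643 FPKM in controls and 1.25, 1.36 and 1.22 FPKM with OGP46. Its log2 fold change was 0.75 (limma, adjusted p = 0.0657, or 0.0175 with the block). ID3 was at 8.84, 8.27 and 6.47 FPKM in controls and 11.6, 11.9 and 12.0 FPKM with OGP46. Its log2 fold change was 0.60 (limma, adjusted p = 0.0683, or 0.0124 with the block), and 0.53 with the block and median centring, under the minimum fold change. ID1, given here after its values were seen, was at 20.3, 23.9 and 22.4 FPKM in controls and 30.2, 32.8 and 32.8 FPKM with OGP46. These groups did not overlap, and the log2 fold change of 0.52 (limma, adjusted p = 0.0397) was under the minimum.

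Of the 62 genes of the list in the test between the lines, 5 had a larger log2 fold change in NB4 cells with the block, namely CDKN1A, ID2, TGFB1, TGFBR2 and THBS1, and none had a smaller one, where the shares of all genes were 1.81% and 0.114%. Under the block without the minimum level, 2 genes of the list were called, TGFBR2 and, with a smaller value in NB4, INHBB. The difference was 2.11 for THBS1 (limma with the block, adjusted p = 0.00741), 1.29 for CDKN1A (limma with the block, adjusted p = 0.00958) and 0.87 for ID2 (limma with the block, adjusted p = 0.0241). THBS1 did not exceed 0.0291 FPKM in Kasumi-1 cells, so for this gene the difference rests on NB4 cells. With median centring added, ID2 was no longer called (limma, adjusted p = 0.0650). The difference of ID3 was -0.42 with a standard error of 0.38 and that of FSTL3 -0.21 with a standard error of 0.25, both with the block, and neither was called. For FSTL3 the change in Kasumi-1 cells was thus not shown to differ from NB4 cells. ID3 did not exceed 0.193 FPKM in NB4 cells, near the pseudocount of 0.1, so for ID3 this test cannot tell whether the lines differ.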

How the data were processed

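Poly(A) mRNA of NB4 and Kasumi-1 cells, 3 control and 3 OGP46 samples each, had been sequenced with a stranded kit. The authors deposited 1 FPKM value per gene symbol and sample; the submitters' notes name Trimmomatic, HISAT2, HTSeq, Cufflinks and hg38, with versions not given in the sources used here, and whether counting used strand is not stated, so genes that overlap others on either strand are uncertain. Of the values, 632 lay above 0 and below 1e-04, which whole reads would not give. The 27 symbols turned into dates were left out. FPKM already account for gene length and total mapped fragments.

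Samples were grouped by their labels. log2(FPKM + 0.1) was fitted with limma 3.58.1 in R 4.3.3, using empirical Bayes moderation with a trend of variance on level, for every gene whose mean reached 0.1 FPKM over the samples compared, and p-values were adjusted by Benjamini-Hochberg over all genes tested. Within-line calls and those between untreated lines needed a log2 fold change of 0.58 or more in size beside an adjusted p under 0.05, and the interaction an adjusted p below 0.05. The fit was tested on simulated data. Same-numbered control and OGP46 samples were checked for pairing by the correlation of their deviations from the group mean over the tested genes, which was 0.355, 0.622 and 0.197 in NB4 and 0.218, 0.157 and 0.395 in Kasumi-1 cells. As all exceeded 0.1, values with the replicate number as a block are given too. Some pairs with different numbers also exceeded 0.1. These were NB4 control 1 with OGP46 3 (0.224), NB4 control 3 with OGP46 1 (0.175) and Kasumi-1 control 1 with OGP46 2 (0.101). The other pairs with different numbers lay between -0.468 and 0.0275. Such correlations do not settle whether same-numbered samples were pairs, and calls that need the block rest on that reading.

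The genes named are the 10 members, the genes of the wider list called in a comparison (at most 6 in each direction, largest first), the gene with the highest level in each role and the line markers, with exceptions stated. A further gene of the pathway is not reported here and is not among the 95 of the wider list. The members and lists were chosen with earlier results of these data known. Alternatives were pseudocounts of 1 and 0.01, quantile normalization, median centring, TPM scaling, no minimum level or one of 1 FPKM, no variance trend, a joint model of the 12 samples, the block alone or combined with some of these, an unadjusted p and leaving out each sample. Subtraction of the Kasumi-1 signal from NB4 samples was chosen after seeing the data. Promoter windows and motifs come from RefSeq (GRCh38.p14).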

Additional observations from a re-analysis of the deposited data

Results flagged for a closer look

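TGFB1 and TGFBR2 differed in their response to OGP46 between the lines by the interaction test with the replicate block. For TGFB1 the log2 fold change was 0.61 in NB4 and -0.08 in Kasumi-1 cells, a difference of 0.69 (limma, adjusted p = 0.0131), with 3 of 3 same-numbered pairs higher with OGP46 in NB4 and 1 of 3 in Kasumi-1 cells. For TGFBR2 it was 0.62 and -0.10, a difference of 0.72 (limma, adjusted p = 0.0130), with 3 of 3 pairs higher in NB4 and 3 of 3 lower in Kasumi-1 cells. Without the block neither was called. With the block and median centring the differences were 0.54 and 0.57.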

How the results depend on the processing

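In NB4 cells 3 members were called; the count was 1 with a pseudocount of 1, and 0 with no minimum level, TPM scaling, median centring, quantile normalization or no trend. With the replicate block it was 4, and 1 with the block and median centring or TPM scaling. With the block and no minimum level it was 3, but BMP2 and TGFBR1 were lost and INHBB was added. It ranged from 0 to 3 when 1 sample was left out, at 3 without OGP46 replicate 2 (BMP2, TGFBR2 and TGFBR1, but not TGFB1) and at 0 without any other; BMP2 then had a log2 fold change of -0.97 to -0.74 (limma, adjusted p = 0.0320 to 0.157), TGFB1 of 0.56 to 0.65 (0.0307 to 0.134) and TGFBR2 of 0.55 to 0.72 (0.0371 to 0.172). In the interaction 0 members were called, and 2 with the block alone or with median centring, TPM scaling or no minimum level (TGFB1 and TGFBR2, but TGFBR2 and INHBB with no minimum level). The counts of members in Kasumi-1 cells (0) and between untreated lines (7) did not move by over 1.5 times. Signs turned for NB4 ACVR2A (-0.0844 with median centring, with or without the block; -0.0675 to 0.34 leaving out 1 sample), NB4 ACVR1B (-0.0473 with median centring, with or without the block; -0.0242 with quantile normalization), and Kasumi-1 SMAD7 (0.0136 with TPM scaling, with or without the block; -0.25 to 0.29 leaving out 1 sample), TGFB1 (-0.18 to 0.0015) and SMAD6 (-0.0835 to 0.0159), none of them called. Over all genes, 170 were called higher and 13 lower in NB4 cells, 595 and 135 with the block, and 310 and 139 with the block and TPM scaling, so the excess of higher calls depends on scaling. All genes called in NB4 were 183, against 117 with a pseudocount of 1, 4 with no minimum level or no trend, 0 with TPM scaling, median centring or quantile normalization, 498 in the joint model, and 0 to 396 leaving out 1 sample. In Kasumi-1 cells 4 were called, and 0 to 98 under the alternatives with adjusted p. With median centring they were 4 higher and 14 lower, with TPM scaling 13 and 5, with the block 32 and 41, and with the block and median centring 26 and 67. In the interaction the block gave 223 higher and 14 lower, with median centring 97 and 47, and with TPM scaling 88 and 41. The causes were not tested. Depth is unknown, so levels near 0, as for INHBB, cannot be told from no expression.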
